A study of Rattus norvegicus with 15 samples.

Results

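The genes described here are the matrix metalloproteinases (Mmp), their tissue inhibitors (Timp), the ADAMTS proteases and ADAMTS-like proteins, and the lysyl oxidases (Lox and Loxl) of rat multifidus muscle, the deep paraspinal muscle beside the lumbar spine. They were chosen by gene symbol, with a mean of at least 10 reads over 15 libraries. Of 37991 genes in the table, 56 had such a symbol and 42 of these passed the minimum. These 42 comprised 11 of 23 Mmp genes, 4 of 4 Timp genes, 17 of 19 Adamts genes, 5 of 5 Adamtsl genes and 5 of 5 Lox and Loxl genes. The other 14 had a lower mean.

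Matrix metalloproteinases are zinc enzymes that cut collagens, gelatins and other proteins of the extracellular matrix, and the tissue inhibitors bind and block them. ADAMTS proteases process procollagens or cut proteoglycans, while the ADAMTS-like proteins share their ancillary domains without the protease and associate with fibrillin microfibrils. Lysyl oxidases oxidise lysine side chains of collagen and elastin so that the fibres crosslink, which stiffens scar and fibrotic muscle.

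The animals were male Sprague Dawley rats aged 12 weeks, of wild type genotype, in 5 groups: control without injury (2 libraries), surgery without treatment (2), VitD after surgery (3), pMT after surgery (4) and pMT/VitD after surgery (4). The surgery was a left hemilaminectomy in which bone and a facet joint were removed and a lumbar spinal nerve was tied off, so the muscle was both cut and denervated. pMT are mitochondria isolated from human plasma and pooled over donors, given at 25 μg in 100 μL per site (50 μg per rat), and VitD is cholecalciferol, given at 150 μg per site (300 μg per rat). The comparisons ask whether transcripts of matrix turnover differ after surgery, with pMT and with VitD. The surgery group received no injection, so pMT and the injection itself cannot be told apart in pMT against surgery. Labels do not say that each library is a separate animal, so p-values measure the spread between libraries, which may be technical.

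Libraries held 52342134 to 73557878 counts. Levels between libraries are given below as CPM (counts relative to library size after TMM scaling), and levels between genes as TPM (transcript levels per length and per library). Surgery replicates 1 and 2 were the closest pair of all libraries but differed by more than sampling noise, and VitD replicate 2 was closer to surgery replicate 2 than to any VitD library. VitD replicate 1 stood far from every other library. Replicate 4 of the pMT group was closest to a pMT/VitD library, and replicate 4 of the pMT/VitD group to a control. Replicate 3 of the pMT/VitD group was also closest to that control. The relation of gene length to a library's log2 CPM, taken as the difference from each gene's mean over all libraries, was most negative in pMT replicate 4 and pMT/VitD replicates 1 to 3 (Spearman -0.39 to -0.17 across genes), whose TMM factors were 0.849 to 0.867. These values were 0.0178 to 0.453 and 0.982 to 1.09 in the other libraries with pMT. Counts of calls are given with and without the libraries that stood apart.

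Of the 42 genes, 21 were lower in operated rats given pMT (pMT and pMT/VitD) than in operated rats without it (surgery and VitD), against 13.3% of all genes. Against controls, 3 of the 42 differed in the surgery group and 10 in the VitD group, against 1.55% and 8.67% of all genes. Loxl1, a crosslinking enzyme, rose 2.99-fold after surgery, and Lox and Loxl1 were 3.86-fold and 2.93-fold lower with pMT than without it in operated rats. Adamts8 went the other way, and 17 of the 42 genes were called in no comparison. All 42 were tested, as part of a fit of edgeR's quasi-likelihood test to 17201 genes. Every log2 fold change, its standard error (given after ±) and its Benjamini-Hochberg adjusted p come from that fit, and a gene was called where the adjusted p was under 0.05.

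**Figure D1:**
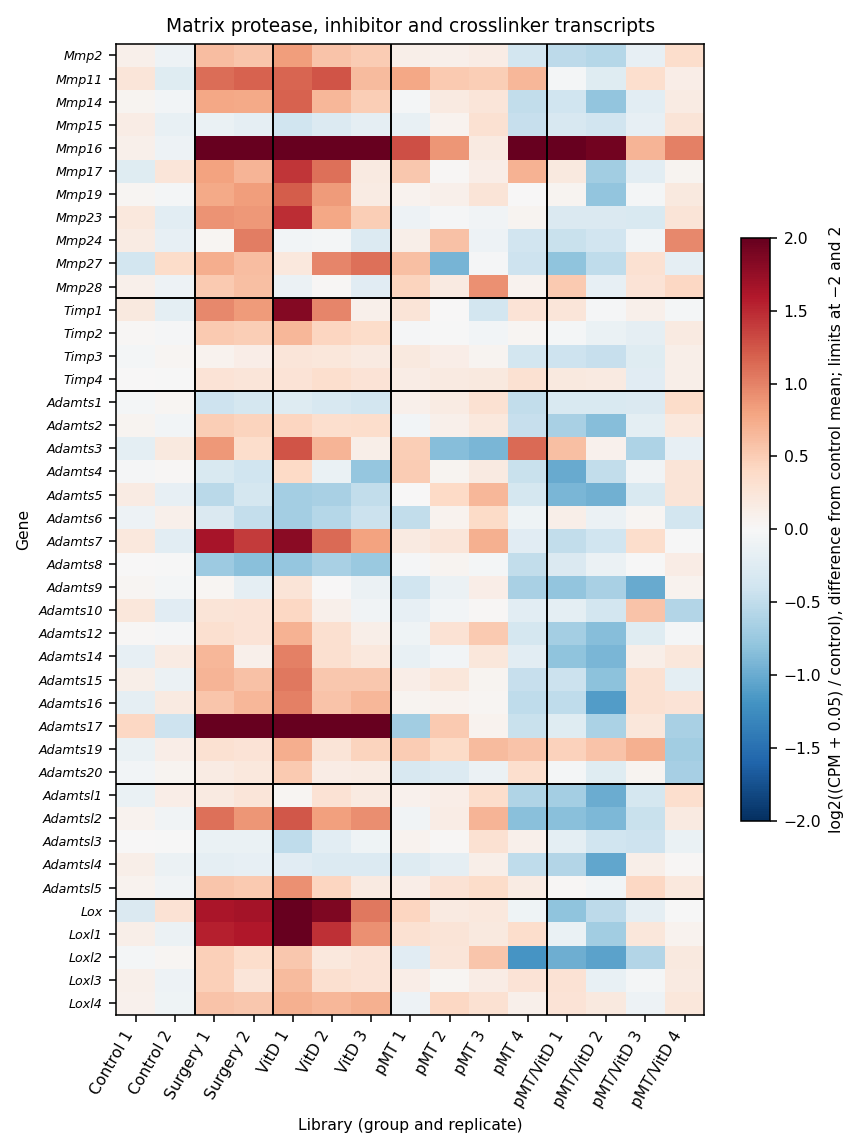
Each row is 1 of the 42 genes, ordered by family, and each column is 1 of the 15 libraries. Colour gives the log2 difference in CPM (with 0.05 added) from the mean of the 2 control libraries, with colours limited at -2 and 2. Adamts17, Lox and Loxl1 have their highest values in the surgery and VitD columns, while Adamts8 is lowest there.

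In the test of any difference among the 5 groups, 15 of the 42 genes were called, against 11.8% of all genes tested. Between operated rats with and without pMT (pMT and pMT/VitD against surgery and VitD, each group weighted equally), 23 were called, 21 lower and 2 higher with pMT. Over all genes 13.3% were called lower and 10% higher in that comparison, 23.3% in all. The median log2 fold change of the 42 was -0.51, against 0.01 over all genes. In 13 of the 42, every library with pMT was below every operated library without it (7.15% of all genes), and in 1, Adamts8, every library was above (4.24%). Without surgery replicate 1, or without surgery replicate 2, the count of calls fell from 23 to 15. The share of all genes called in those 2 refits of this comparison is not given here. In the 5-group test the same refits took the 42 from 15 to 10 calls, and all genes from 11.8% to 6.41% and 6.38%.

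Both single comparisons with pMT had calls. Between the pMT and surgery groups 6 were called, 5 lower (Adamts17, Lox, Loxl1, Adamts7 and Timp2) and 1 higher (Adamts8), against 1.94% of all genes (1.55% lower and 0.395% higher). There was 1 call left without any 1 of control replicates 1 and 2, surgery replicates 1 and 2, and pMT replicates 1 and 2. There were 2 calls without pMT replicate 3 or VitD replicate 2, and 3 without pMT replicate 4. Between the pMT/VitD and VitD groups 20 were called, 19 lower and 1 higher, against 21.9% of all genes (12.2% lower and 9.66% higher). Without VitD replicate 1 there were 11 calls. Shares of all genes called in these refits are not given here, so the falls cannot be set against those of other genes. These 2 comparisons share no library, but both come from 1 fit with a shared estimate of the spread. All 6 genes called with pMT alone were also called, in the same direction, with pMT/VitD. The same overlap over all genes is not given here, so it is not read as particular to these 6.

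Markers of other cell types differed between these libraries as well, and their part in the results was not tested. In bulk muscle RNA, fewer cells of a type and less RNA per cell cannot be told apart. The summed level of 6 fibroblast and fibro-adipogenic progenitor markers was 1111 to 1531 CPM with pMT, 1890 to 3069 in operated libraries without it and 1434 to 1454 in controls. Of these, 3 of 6 were called lower with pMT. Col1a1, also a fibrillar collagen, was at 309 to 601 CPM with pMT and 784 to 1779 without. Dcn overlapped (539 to 827 with pMT, 627 to 744 without), as did Pdgfra, Pi16 and Dpt, while Lum did not. The 6 macrophage markers summed to 144 to 199.7 CPM with pMT, 289.8 to 430.3 without and 176 to 178 in controls, with 6 of 6 called lower. Muscle fibre markers, 8 genes, summed to 134100 to 177590 CPM with pMT and 100570 to 138900 without, so the labelled tissue was plain in every library, and 2 of 8 were called higher. Bone and osteoclast markers were at 12.7 to 15.1 CPM with pMT and 20.5 to 34.2 without, with 2 of 3 tested lower. Most of that sum was Ctsk, at 8.80 to 12.8 CPM with pMT and 15.9 to 26.1 without. Ibsp, Sp7 and Bglap were at 0.136 CPM or less in every library. Dmp1 overlapped, at 0.640 to 1.43 CPM with pMT and 0.495 to 0.924 without, so the sum does not measure bone tissue. T and B cell markers were at 0.505 to 1.39 CPM with pMT and 1.63 to 3.32 without, with 2 of 5 tested lower. For the calls on these lists and the next ones, the shares over all genes were 13.3% lower and 10% higher.

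The summed ranges of the other marker lists overlapped between operated libraries with and without pMT. For endothelial cells 1 of 5 was higher and 1 lower, for smooth muscle and pericytes 2 of 5 were lower, for Schwann cells 0 of 4, for adipocytes 0 of 5 and for tendon 1 of 4 was higher. Of those tested, 1 of 5 neutrophil and 3 of 4 mast cell markers were higher, and 1 of 2 cartilage markers was lower. Elane (neutrophils), Mcpt1 (mast cells) and Acan (cartilage) had 3 counts or fewer in every library.

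Surgery was set against control to see which of these genes differ after injury. Of the 42, 3 were called, Adamts17 and Loxl1 higher and Adamts8 lower, against 1.55% of all genes (1.25% higher and 0.296% lower). The median log2 fold change of the 42 was 0.52, against -0.01 over all genes, and 33 of 42 values were above 0. In this comparison of 2 with 2 libraries, no call was left without control replicate 1, control replicate 2, surgery replicate 1 or surgery replicate 2. Over all genes, 0.0449% to 0.113% were called in those refits. There was 1 call without any 1 of pMT replicates 1 and 2 and VitD replicate 2 (0.716% to 0.943% of all genes). There were 5 without pMT replicate 4 (2.1%) and 6 without pMT/VitD replicate 4 (2.31%) or VitD replicate 3 (2.86%). Without VitD replicate 1 there were 8 (5.98%). The VitD group against the same controls had 10 calls, 9 higher and 1 lower, against 8.67% of all genes (5.48% higher and 3.2% lower). They were Adamts17, Lox, Loxl1, Loxl4, Mmp11, Mmp16, Mmp23, Timp2 and Adamts7, all higher, and Adamts8, lower. No call was left without control replicate 1 or 2 (0.0731% and 0.163% of all genes). Without VitD replicate 1 or 2, 4 were left (3.58% and 4.51%).

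Among the crosslinkers, Lox (gene 24914), the founding lysyl oxidase of collagen and elastin, was at 8.65 and 13.02 CPM in the control libraries, 33.1 and 33.7 in the surgery group, 74.4, 38.7 and 22.2 in the VitD group, 14.3, 11.99, 12.3 and 10.04 in the pMT group and 6.03, 7.34, 9.35 and 10.6 in the pMT/VitD group. All 5 operated libraries without pMT were above every other library, VitD replicate 1 highest and VitD replicate 3 lowest among them. The log2 fold change with pMT against without was -1.95 ± 0.23, adjusted p = 7.36e-05 by edgeR's quasi-likelihood test, and against control it was 2.06 ± 0.40, adjusted p = 0.00969 in the VitD group. Surgery against control gave 1.62 ± 0.41, adjusted p = 0.0618, which did not pass. Without VitD replicate 1 the averaged log2 fold change of Lox was -1.66 ± 0.17, and that of Loxl1, described next, was -1.30 ± 0.14, both called.

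Loxl1 (gene 315714), an oxidase known for elastic fibre upkeep, was the most abundant crosslinker with a mean of 19.9 TPM. It was measured at 20.8 and 17.6 CPM in the control libraries, 56.6 and 58.4 in the surgery group, 98.9, 52.7 and 35.96 in the VitD group, 23.8, 22.8, 21.97 and 24.6 in the pMT group and 17.4, 11.8, 22.5 and 20.1 in the pMT/VitD group. Again no library with pMT reached an operated library without it, and the pMT libraries lay within 22.0 to 24.6 CPM. Loxl1 rose after surgery by 1.58 ± 0.35 on the log2 scale (edgeR adjusted p = 0.043). It was lower in the pMT than in the surgery group (-1.30 ± 0.29, adjusted p = 0.0346) and in the averaged pMT comparison (-1.55 ± 0.20, adjusted p = 0.000127), both by edgeR.

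The other 3 crosslinkers differed less. Loxl4 (gene 309380) was at 2.998 and 2.67 CPM in the control libraries, 4.24 and 4.15 in the surgery group, 4.67, 4.53 and 4.69 in the VitD group, 2.65, 3.79, 3.51 and 3.05 in the pMT group and 3.44, 3.24, 2.62 and 3.31 in the pMT/VitD group. Its ranges with and without pMT in operated rats did not overlap, and the log2 fold change was -0.46 ± 0.10, adjusted p = 0.0066 by edgeR. Loxl2 and Loxl3, also amine oxidases of collagen, gave -0.65 ± 0.25, adjusted p = 0.0732 and -0.28 ± 0.10, adjusted p = 0.0608 in the same comparison and were not called.

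**Figure D2:**
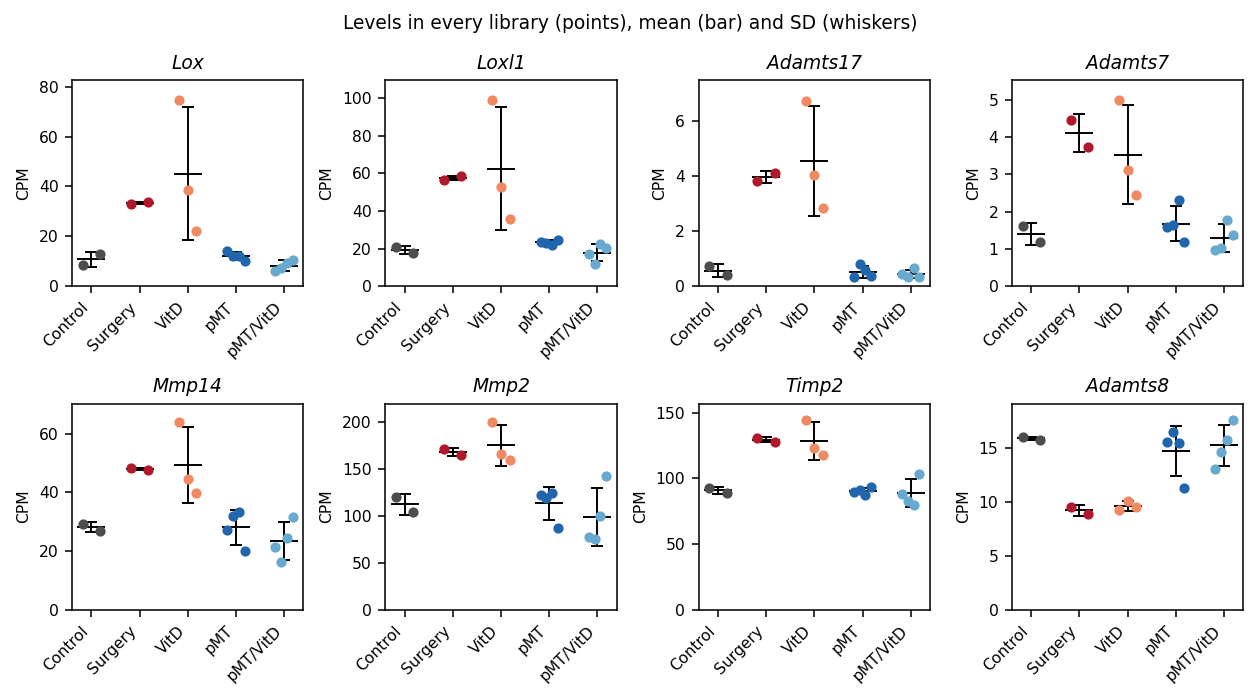
Levels of 8 genes in CPM, with 1 point per library, the group mean as a bar and the SD as whiskers (2 control, 2 surgery, 3 VitD, 4 pMT and 4 pMT/VitD libraries). Every axis starts at 0. In all panels but that of Adamts8, the surgery and VitD points lie above all others, and Adamts8 is below there.

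The ADAMTS family held the largest decrease of the 42 genes and the only 2 increases called with pMT. Adamts17 (gene 293004), a secreted protease linked to fibrillin microfibrils and short stature, was at 0.742 and 0.400 CPM in the control libraries, 3.80 and 4.11 in the surgery group, 6.72, 4.05 and 2.84 in the VitD group, 0.320, 0.806, 0.579 and 0.388 in the pMT group and 0.454, 0.334, 0.645 and 0.331 in the pMT/VitD group. The 5 operated libraries without pMT held 2.84 CPM or more and all other libraries 0.806 or less. It rose 6.89-fold after surgery (2.78 ± 0.48, adjusted p = 0.0141) and was 8.75-fold lower with pMT than without it (-3.13 ± 0.26, adjusted p = 6.93e-06), by edgeR. Its fall in the pMT against the surgery group (-2.89 ± 0.37, adjusted p = 0.00159) was called in every one of 27 alternatives. At a mean of 0.432 TPM it was a weak transcript, and its counts ran from 17 to 574 per library.

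Adamts7 (gene 315879), a protease of cartilage oligomeric matrix protein, was separated in the same way, by a smaller fold. Its level was 1.61 and 1.20 CPM in the control libraries, 4.46 and 3.74 in the surgery group, 5.01, 3.11 and 2.46 in the VitD group, 1.58, 1.65, 2.30 and 1.18 in the pMT group and 0.972, 1.04, 1.78 and 1.38 in the pMT/VitD group. No library with pMT was above 2.30 CPM and no operated library without it was below 2.46 CPM. The log2 fold change with pMT was -1.36 ± 0.21, adjusted p = 0.00047 and that of VitD against control was 1.33 ± 0.35, adjusted p = 0.0322, while surgery against control (1.54 ± 0.37, adjusted p = 0.0527) did not pass in edgeR's test.

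Adamts8 (gene 300475), described as an antiangiogenic protease, was at 15.97 and 15.7 CPM in the control libraries, 9.54 and 8.82 in the surgery group, 9.22, 10.1 and 9.46 in the VitD group, 15.5, 16.4, 15.4 and 11.2 in the pMT group and 12.99, 14.6, 15.7 and 17.5 in the pMT/VitD group. All 5 operated libraries without pMT were at 10.1 CPM or less and all others at 11.2 or more. It fell after surgery (-0.79 ± 0.17, adjusted p = 0.0375) and in the VitD group (-0.72 ± 0.15, adjusted p = 0.0137), and was higher with pMT (0.67 ± 0.10, adjusted p = 0.000451), by edgeR's quasi-likelihood test. With library sizes in place of TMM factors, only the averaged pMT call remained, at 0.44 (adjusted p = 0.0293). Under that scaling the median of all genes moved to 0.25 in surgery against control and to -0.23 in the averaged pMT comparison, and the directions of Adamts8 stayed.

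Adamts15 (gene 300474), a proteoglycan-cutting enzyme, is the next protein-coding gene to Adamts8 in the GRCr8 annotation, yet it moved in the opposite direction. It was at 5.59 and 4.75 CPM in the control libraries, 8.26 and 7.75 in the surgery group, 10.8, 7.51 and 7.47 in the VitD group, 5.68, 6.05, 5.36 and 3.72 in the pMT group and 3.82, 2.89, 6.36 and 4.50 in the pMT/VitD group. The operated groups with and without pMT did not overlap, with a log2 fold change of -0.79 ± 0.17, adjusted p = 0.00478 by edgeR. The ratio of Adamts8 to Adamts15, in TPM within each library, was 4.45 and 5.15 in controls, 1.77 and 1.80 in the surgery group and 1.33 to 2.09 in the VitD group. In the pMT group it was 4.22 to 4.72 and in the pMT/VitD group 3.83 to 7.91. Adamts1 and Adamts5, the other adjacent pair among the 42, were called in no comparison.

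**Figure D3:**
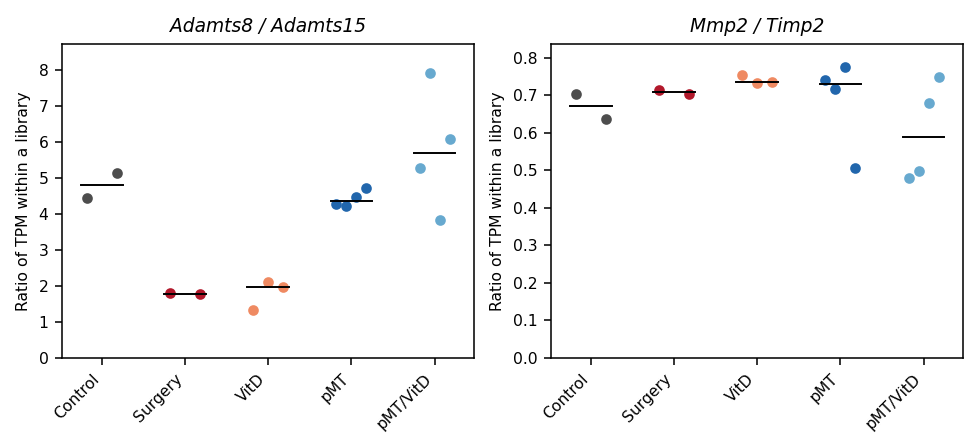
Ratios of TPM within each library, 1 point per library, with the group median as a bar, for Adamts8 over Adamts15 (left) and Mmp2 over Timp2 (right). The Adamts8 to Adamts15 ratio was 1.33 to 2.09 in the surgery and VitD groups and 3.83 to 7.91 elsewhere. The Mmp2 to Timp2 ratio was lowest in pMT replicate 4 and pMT/VitD replicates 1 and 2.

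Adamts2 (gene 287899), which removes the amino-terminal propeptide of fibrillar procollagens, had the highest mean TPM of its family (6.17). It was at 28.3 and 26.2 CPM in the control libraries, 38.5 and 37.02 in the surgery group, 36.7, 34.4 and 34.7 in the VitD group, 26.2, 29.3, 31.7 and 19.8 in the pMT group and 17.4, 15.1, 23.7 and 31.6 in the pMT/VitD group. Libraries with pMT all lay below the operated libraries without it, and the log2 fold change was -0.59 ± 0.15, adjusted p = 0.0138 by edgeR. Adamts14 and Adamts16, of which the first also processes procollagen, were lower too, at -0.64 and -0.81, and Adamts12 at -0.49. Adamts6 was higher by 0.44 (edgeR adjusted p = 0.0361). The Adamts6 call was lost in 12 of 26 alternatives, among them library sizes in place of TMM factors, no filter on low counts, the replicate block, and leaving out surgery replicate 1 or 2, pMT replicate 2 or 3, pMT/VitD replicate 1, 2 or 3, or VitD replicate 1 or 2.

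Adamts1 (gene 79252), an aggrecanase and versicanase, was at 20.2 and 21.2 CPM in the control libraries, 15.6 and 16.2 in the surgery group, 17.3, 16.6 and 15.99 in the VitD group, 22.1, 23.1, 25.5 and 14.7 in the pMT group and 16.8, 16.7, 16.9 and 26.8 in the pMT/VitD group. Both groups with pMT overlapped the operated groups without it, and the averaged log2 fold change was 0.32 ± 0.14, adjusted p = 0.113, not called by edgeR. The aggrecanases Adamts4 and Adamts5 were likewise not called, at 0.16 (95% interval -0.36 to 0.68) and 0.45 (± 0.21). Of 17 Adamts genes, 7 were called lower and 2 higher with pMT, with a family median of -0.37.

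Of the metalloproteinases, 7 of 11 were called lower with pMT and none higher, with a family median of -0.79. Mmp2 (gene 81686), gelatinase A, was the most abundant at a mean of 59.7 TPM. Its level was 119.8 and 104 CPM in the control libraries, 171 and 165 in the surgery group, 200.2, 165 and 159 in the VitD group, 122, 119, 125 and 86.97 in the pMT group and 77.5, 75.7, 99.7 and 142 in the pMT/VitD group. All libraries with pMT were below all operated libraries without it, pMT/VitD replicate 4 being highest among them. The log2 fold change was -0.70 ± 0.15, adjusted p = 0.00402 by edgeR, while surgery against control (0.59 ± 0.26, adjusted p = 0.267) did not pass.

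Mmp14 (gene 81707) is the membrane protease that activates pro-Mmp2 at the cell surface together with Timp2. It was at 29.3 and 26.9 CPM in the control libraries, 48.2 and 47.6 in the surgery group, 63.8, 44.4 and 39.7 in the VitD group, 27.2, 31.8, 33.4 and 20.02 in the pMT group and 21.3, 16.2, 24.3 and 31.6 in the pMT/VitD group. The operated groups with and without pMT did not overlap, and the averaged log2 fold change was -0.92 ± 0.16, adjusted p = 0.00125 by edgeR. Against control, the VitD group gave 0.81 ± 0.27, adjusted p = 0.0731, which did not pass.

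Several Mmp genes of lower level followed. Mmp23 (gene 94339), a membrane-bound form with a cysteine array, was at 4.80 and 3.58 CPM in the control libraries, 7.81 and 7.62 in the surgery group, 11.6, 7.16 and 5.84 in the VitD group, 3.84, 4.07, 3.93 and 4.31 in the pMT group and 3.39, 3.39, 3.33 and 4.98 in the pMT/VitD group. Its highest library with pMT, at 4.98 CPM, lay below the lowest operated library without it, at 5.84, and the log2 fold change was -1.03 ± 0.15, adjusted p = 0.000475 by edgeR. Mmp11 (gene 25481), stromelysin 3, was at 0.742 and 0.517 CPM in the control libraries, 1.40 and 1.46 in the surgery group, 1.45, 1.56 and 0.989 in the VitD group, 1.10, 0.908, 0.896 and 1.02 in the pMT group and 0.605, 0.519, 0.796 and 0.681 in the pMT/VitD group. The pMT group of Mmp11 lay between the surgery and control groups, and 2 of its libraries exceeded VitD replicate 3. The log2 fold change of Mmp11 was -0.79 ± 0.16, adjusted p = 0.00325 in the averaged comparison and -0.55 ± 0.24, adjusted p = 0.305 for pMT against surgery alone, which was not called by edgeR.

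Mmp19 (gene 304608), an enzyme of basement membrane proteins, was at 2.46 and 2.32 CPM in the control libraries, 4.08 and 4.32 in the surgery group, 5.58, 4.34 and 2.68 in the VitD group, 2.51, 2.57, 2.85 and 2.40 in the pMT group and 2.48, 1.35, 2.32 and 2.74 in the pMT/VitD group. Mmp17 (gene 288626), a membrane-anchored form, was at 0.931 and 1.32 CPM in the control libraries, 1.98 and 1.80 in the surgery group, 3.05, 2.44 and 1.26 in the VitD group, 1.63, 1.13, 1.21 and 1.83 in the pMT group and 1.27, 0.667, 0.946 and 1.15 in the pMT/VitD group. Both overlapped between operated libraries with and without pMT, Mmp19 through VitD replicate 3, and Mmp17 also because pMT replicate 4 was above surgery replicate 2. They gave -0.81 ± 0.18, adjusted p = 0.00504 and -0.77 ± 0.22, adjusted p = 0.0208 by edgeR. The Mmp17 call was lost without VitD replicate 1, surgery replicate 1 or surgery replicate 2 (largest adjusted p = 0.0845). Mmp27 fell by 1.01 on the log2 scale, ± 0.32 (edgeR adjusted p = 0.0329), at group means of 0.279 to 0.631 CPM.

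Mmp16, a membrane-type enzyme, differed from the others. It was at 0.142 and 0.117 CPM in the control libraries, 0.905 and 0.914 in the surgery group, 1.18, 0.873 and 0.664 in the VitD group, 0.388, 0.282, 0.152 and 1.09 in the pMT group and 0.994, 0.630, 0.237 and 0.311 in the pMT/VitD group. Replicate 4 of the pMT group and replicate 1 of the pMT/VitD group reached the level of the surgery group, so the groups with and without pMT overlapped. It rose in VitD against control (2.79 ± 0.79, adjusted p = 0.0437) and its averaged pMT comparison was not called (-0.85 ± 0.41, adjusted p = 0.148) by edgeR. Its difference from control in operated rats with pMT was 1.94, with a 95% interval of 0.37 to 3.52 and an edgeR adjusted p of 1.0. Mmp15, another membrane-type enzyme and the third Mmp gene by TPM (12.9), gave 0.14 (-0.14 to 0.42) with pMT, and Mmp24 and Mmp28 were also not called.

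Among the inhibitors, Timp2 (gene 29543) had the highest level of all 42 genes, a mean of 85.9 TPM. It was at 92.96 and 89.2 CPM in the control libraries, 131 and 128 in the surgery group, 145, 123 and 118 in the VitD group, 89.5, 90.8, 87.7 and 93.6 in the pMT group and 88.5, 82.8, 80.1 and 104 in the pMT/VitD group. The 5 operated libraries without pMT held 118 CPM or more and every other library 104 or less. Timp2 fell 1.44-fold with pMT (-0.53 ± 0.08, adjusted p = 0.00046) and was called in both single comparisons, and the VitD group was above control by 0.50 ± 0.13, adjusted p = 0.0308, all by edgeR.

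Timp1 (gene 116510), the inducible inhibitor of many injured tissues, was at 8.87 and 6.77 CPM in the control libraries, 15.1 and 14.1 in the surgery group, 27.7, 15.2 and 8.33 in the VitD group, 9.32, 7.78, 5.97 and 9.37 in the pMT group and 9.14, 7.58, 8.34 and 7.57 in the pMT/VitD group. VitD replicate 3 lay among the libraries with pMT, so the groups overlapped, and the averaged log2 fold change was -0.96 ± 0.21, adjusted p = 0.00546 by edgeR. Timp3 (gene 25358), which is held in the matrix and also blocks ADAMTS proteases, was at 157 and 167 CPM in the control libraries, 170.1 and 177 in the surgery group, 191, 189 and 183 in the VitD group, 184, 178, 167 and 126 in the pMT group and 122, 118, 137 and 175 in the pMT/VitD group. Its averaged difference of -0.26 ± 0.11, adjusted p = 0.106 was not called, although pMT/VitD against VitD was (-0.44 ± 0.15, adjusted p = 0.047), by edgeR. That Timp3 call held in only 10 of 26 alternatives (largest adjusted p = 0.124), and was lost without any 1 of the VitD libraries and with the replicate block. Timp4 was called nowhere (-0.14, 95% interval -0.29 to 0.02).

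Mmp2, Mmp14 and Timp2 act together in the activation of pro-Mmp2, so the ratio of Mmp2 to Timp2 was taken within each library. It was 0.638 and 0.703 in controls, 0.704 and 0.713 in the surgery group and 0.733 to 0.755 in the VitD group. In libraries with pMT it was 0.507 in pMT replicate 4, 0.478 and 0.499 in pMT/VitD replicates 1 and 2, and 0.679 to 0.775 in the other 5. The split of the libraries with pMT did not follow their groups, and the 3 low libraries had the most negative length relation (Spearman -0.39 to -0.32) and TMM factors of 0.849 to 0.867, whose part in it was not tested. These 3 libraries and pMT/VitD replicate 3 also held the 4 lowest sums of TPM over the 42 genes.

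**Figure D4:**
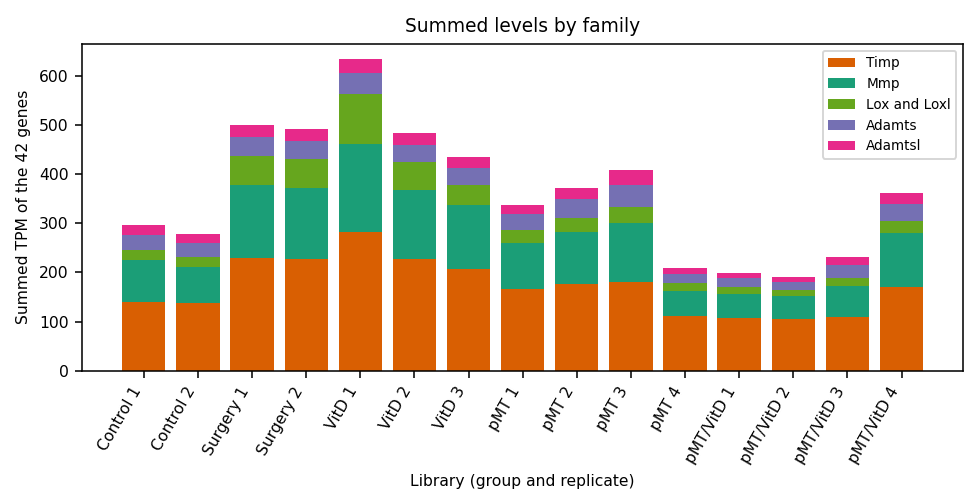
Summed TPM of the 42 genes in each library, stacked by family, on a linear axis from 0. Operated libraries without pMT sum to 435 to 633, controls to 277 and 297, and libraries with pMT to 191 to 408. TPM has no TMM scaling, so these gaps are not those of CPM.

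The summed TPM of the 42 genes was 277 and 297 in controls, 492 and 500.3 in the surgery group and 435 to 633 in the VitD group. It was 209 to 408 in the pMT group and 191 to 362 in the pMT/VitD group. No library with pMT reached an operated library without it, and the control values lay within the range with pMT. These sums have no TMM scaling, so their gaps between libraries differ from those in CPM. For Timp2, control and surgery means were 68.2 and 120 in TPM, against 91.1 and 129 in CPM. Timp transcripts made up 44.1% to 55.2% of the sum in every library. The Lox and Loxl share was 9.40% to 16.1% in operated libraries without pMT, 5.78% to 7.87% with pMT, and 6.84% and 7.09% in controls.

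The ADAMTS-like genes, whose proteins have no protease activity, had 2 of 5 called lower with pMT. Adamtsl2 (gene 311827), which binds latent TGF-beta binding protein and fibrillin, was at 5.70 and 5.15 CPM in the control libraries, 11.7 and 10.1 in the surgery group, 12.8, 9.65 and 10.4 in the VitD group, 5.17, 6.03, 8.67 and 3.01 in the pMT group and 3.03, 2.87, 3.98 and 6.11 in the pMT/VitD group. The lowest operated library without pMT, at 9.65 CPM, was above the highest with it, pMT replicate 3 at 8.67, and the log2 fold change was -1.19 ± 0.22, adjusted p = 0.0017 by edgeR. Adamtsl5 (gene 314626) was at 9.61 and 8.67 CPM in the control libraries, 13.4 and 13.1 in the surgery group, 17.3, 12.4 and 10.3 in the VitD group, 9.97, 11.1, 11.7 and 10.2 in the pMT group and 9.23, 8.82, 12.1 and 10.6 in the pMT/VitD group. It overlapped between the groups and just passed at -0.34 ± 0.12, adjusted p = 0.048 by edgeR. Adamtsl4 (gene 310670), the most abundant of the 5 (10.7 TPM), was at 39.5 and 33.5 CPM in the control libraries, 32.2 and 32.5 in the surgery group, 30.98, 30.2 and 30.1 in the VitD group, 30.6, 32.1, 39.3 and 25.6 in the pMT group and 24.2, 17.7, 39.3 and 36.9 in the pMT/VitD group. Libraries of the pMT/VitD group spread widest, and no difference was found between operated rats with and without pMT (-0.03, 95% interval -0.38 to 0.32).

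**Figure D5:**
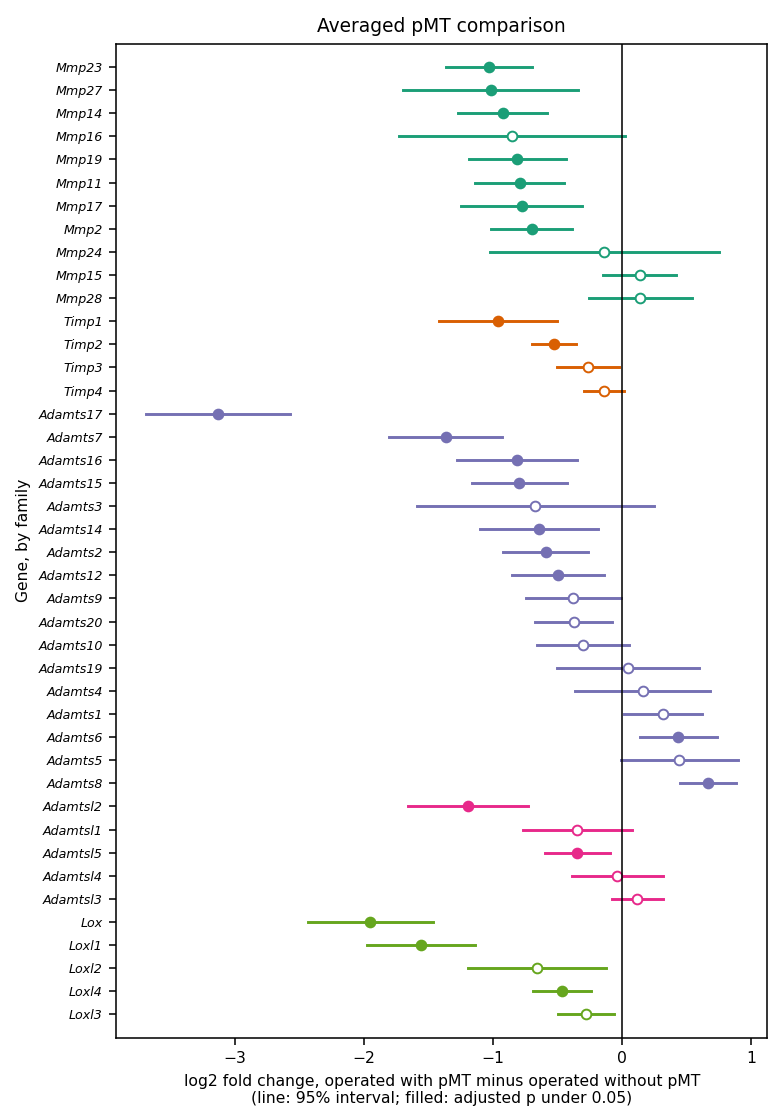
The log2 fold change of each of the 42 genes between operated rats with pMT (8 libraries) and without it (5 libraries), with 95% intervals, grouped by family. Filled points are the 23 genes with an adjusted p under 0.05. Adamts8 and Adamts6 are filled on the right of 0 and the other 21 on the left.

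Promoter sequences are shown for 3 genes whose groups did not overlap, 1 protease, 1 crosslinker and 1 inhibitor, to give the sequence beside the transcripts that moved together. Each is 250 bases ending at the base before the annotated start, 5′ to 3′, from RefSeq (GRCr8), at chr1:129855812-129856061 on the plus strand for Adamts17, chr8:67612225-67612474 on the minus strand for Loxl1 and chr10:104089215-104089464 on the minus strand for Timp2. Capitals mark matches to the motifs searched.
Adamts17: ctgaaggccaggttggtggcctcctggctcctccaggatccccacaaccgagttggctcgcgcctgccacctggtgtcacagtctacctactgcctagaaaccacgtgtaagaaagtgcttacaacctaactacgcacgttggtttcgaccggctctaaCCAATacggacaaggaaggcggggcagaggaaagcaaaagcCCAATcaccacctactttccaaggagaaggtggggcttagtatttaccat
Loxl1: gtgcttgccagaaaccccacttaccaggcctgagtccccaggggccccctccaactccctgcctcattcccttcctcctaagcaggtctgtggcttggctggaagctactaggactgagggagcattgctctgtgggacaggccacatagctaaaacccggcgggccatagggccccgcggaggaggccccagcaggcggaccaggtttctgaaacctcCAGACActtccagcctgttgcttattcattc
Timp2: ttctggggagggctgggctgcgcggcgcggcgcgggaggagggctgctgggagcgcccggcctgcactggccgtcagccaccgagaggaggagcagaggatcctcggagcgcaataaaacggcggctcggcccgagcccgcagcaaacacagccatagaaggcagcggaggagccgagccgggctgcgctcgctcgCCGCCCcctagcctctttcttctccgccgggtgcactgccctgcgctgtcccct
The Adamts17 window held the CCAAT box 2 times, the Loxl1 window the SMAD element CAGACA once, and the Timp2 window the GC box, as CCGCCC, once.

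RefSeq promoters were found for 30 of the 42 genes. The GC box (GGGCGG or, on the other strand, CCGCCC) was in 20 of 30 windows, 66.7%, against 32.4% of 27457 promoters, and median GC content was 65.6% against 52%. The SMAD element (CAGACA or TGTCTG) was in 6, 20%, against 16.9%, and the CCAAT box (CCAAT or ATTGG) in 8, 26.7%, against 34.3%. The TATA box (TATAAA or TTTATA) was in 4, 13.3%, against 13.1%. The AP-1 element (TGAGTCA or TGACTCA) was in none, against 3.98% of all. No motif searched contains the letters of another. A match is a description of these letters in this window and not a binding site.

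VitD was compared in operated rats without and with pMT. Between the VitD and surgery groups none of the 42 genes was called by edgeR, and 0% of all genes were, with 1 of the 42 and 139 genes overall at an unadjusted p under 0.05. That gene was Mmp28, at -0.71 (95% interval -1.33 to -0.10), named after its values were seen. DESeq2 and limma voom also called 0 of the 42. Over all genes DESeq2 called 0%, while voom with quality weights called 2.44%. For Lox the difference was 0.43 (-0.35 to 1.22), for Loxl1 0.12 (-0.55 to 0.80), for Timp2 -0.01 (-0.28 to 0.26) and for Mmp2 0.06 (-0.45 to 0.56). These intervals do not show that the groups were alike.

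Between the pMT/VitD and pMT groups none of the 42 was called by edgeR, 0% of all genes were, and 37 of 42 values were below 0. At an unadjusted p under 0.05 there were 4 of the 42 and 1737 genes overall. Named after their values were seen, they were Adamtsl3 at -0.41 (-0.65 to -0.17), Mmp11 at -0.59 (-1.04 to -0.14), Adamts12 at -0.56 (-1.0 to -0.11) and Adamts5 at -0.63 (-1.17 to -0.08). With both replicates 4 left out, 13 genes were called, all lower in pMT/VitD, against 18.3% of all genes. Among these, the difference was -1.09 for Loxl2, -1.08 for Adamts5, -1.01 for Adamtsl2, -0.53 for Mmp2 and -0.49 for Timp3. Leaving out only pMT replicate 4, or only pMT/VitD replicate 4, gave 0 calls. DESeq2 called 0 of the 42 (0.541% of all genes) and limma voom with quality weights 22 (38.3%).

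The interaction asks whether pMT went with a different change when VitD was given. None of the 42 was called by edgeR, with 0 of the 42 and 888 genes overall at an unadjusted p under 0.05, and 0% of all genes called. Lox had the smallest p of the 42, with an interaction of -0.98 (95% interval -1.98 to 0.02). Without both replicates 4, Adamts1 (-0.55) and Timp3 (-0.60) were called. DESeq2 called 0 of the 42 (0% of all genes) and limma voom with quality weights 16 (31.4%).

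Operated rats with pMT, both groups weighted equally, were also set against control. No gene of the 42 and 0% of all genes were called by edgeR, with 1 of the 42 (Mmp16) and 375 genes overall at an unadjusted p under 0.05, and DESeq2 and limma voom also called 0 of the 42. The difference was -0.11 for Lox (95% interval -0.79 to 0.58), 0.09 for Loxl1 (-0.51 to 0.68), -0.25 for Adamts17 (-1.09 to 0.60), -0.08 for Mmp2 (-0.52 to 0.35), -0.09 for Adamts8 (-0.37 to 0.20) and -0.02 for Timp2 (-0.26 to 0.21). The interval for Timp2 is the narrowest of these 6 and that for Adamts17 the widest. This comparison shares its control libraries with surgery against control, and its pMT libraries with the averaged pMT comparison.

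Genes that make or surround the substrates were counted for the same comparisons from lists written for this purpose. Between operated rats with and without pMT, 8 of 11 fibrillar collagens were lower and 0 higher (median log2 fold change -1.0). The largest changes were in Col2a1 (-1.47), Col1a1 (-1.43) and Col1a2 (-1.24). Col2a1, a cartilage collagen, was near the floor, at 0 to 0.367 CPM with pMT and 0.355 to 0.573 in operated libraries without it. Of 15 collagen processing genes tested, 11 were lower and 1 higher (median -0.52), with P4ha3, a collagen prolyl hydroxylase subunit, at -3.63, Plod2, the lysyl hydroxylase of crosslink sites, at -1.20 and the chaperone Fkbp10 at -1.0. Of 16 elastic fibre and microfibril genes, substrates or partners of Lox, Loxl1 and ADAMTS-like proteins, 12 were lower and 0 higher (median -0.68), among them Fbn2 at -1.60, Ltbp2 at -1.54 and Mfap4 at -1.52.

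The remaining lists held other proteolytic genes, and proteoglycans with a few other matrix proteins such as Vwf. Of 16 other matrix proteases and regulators tested, 8 were lower and 0 higher (median -0.36), with A2m, a broad protease trap, at -2.55, Fap, a fibroblast surface protease, at -0.89 and the cathepsin Ctss at -0.87. In the plasminogen system, which activates several Mmp proenzymes, 1 of 8 tested was lower (Plg, -1.81), near the 13.3% of all genes called lower. The median of that list was -0.29. Of 7 genes tested on the proteoglycan list, which also names Vwf, Comp and Hapln1, 4 were lower (median -0.56). They included Bgn at -1.57, Lum at -0.85 and Vcan at -0.82. Against these list counts, 13.3% of all genes were called lower and 10% higher, with a median over all genes of 0.01.

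After surgery alone, against control, the same lists had 5 calls, all higher, where 1.25% of all genes were called higher. They were Plod2 (1.20), Bmp1 (0.77) and Serpinh1 (0.75) of collagen processing, Mfap4 (1.63) of the microfibrils and Fap (0.94). In VitD against control, 6 of 11 fibrillar collagens, 7 of 15 collagen processing genes and 8 of 16 elastic fibre genes were higher. So were 6 of 16 other proteases, 2 of 7 on the proteoglycan list and 0 of 8 plasminogen genes, and 0 were lower. Over all genes, 5.48% were called higher and 3.2% lower.

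The 14 genes under the minimum included the collagenases, gelatinase B and the stromelysins Mmp3 and Mmp10. Mmp1, Mmp20 and Mmp21 had 0 counts in every library, Mmp1b at most 2, Adamts13 at most 3 and Mmp13, the main rodent collagenase, at most 8. Mmp25 reached 13 counts, Mmp8 15, Mmp7 and Mmp9 (gelatinase B) 16 each, Mmp10 19 and Mmp3 33. Mmp12, the macrophage elastase, had 53 counts in VitD replicate 1, 24 in VitD replicate 2, 11 and 10 in the surgery libraries, 0 in VitD replicate 3, in both controls and in all pMT/VitD libraries, and 0 to 5 in the pMT group. Adamts18 had 18 counts in VitD replicate 1 and at most 2 in any other library. At totals of 52342134 reads or more, a count of 0 allows up to 3 reads, so expression below that was not detectable for the genes at 0, and such floors cover counting error only.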

How the data were processed

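RNA of 15 multifidus samples was sequenced as paired ends. The study used Trimmomatic 0.38 for trimming, HISAT2 2.1.0 (rat build rn6) for alignment, SAMtools 1.9 for sorting and StringTie 2.1.3b for quantification of NCBI RefSeq genes. The deposited table holds the raw read counts per gene that the authors made in this way, tested by them with edgeR 3.40.2. The deposited TPM values of the same table were normalized by the authors for transcript length and library, and the deposited FPKM values, made the same way, were not used here. Strand and multimapping settings are not given in the sources used here, so overlapping or near-identical genes may share reads. No column of per-sample values was left unmapped.

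Counts were fitted in R 4.3.3 with edgeR 4.0.16 (TMM, filterByExpr, robust quasi-likelihood test) over all 15 libraries in 5 groups, with Benjamini-Hochberg adjustment over 17201 genes and a threshold of 0.05. The study's own exact test was an alternative. Others were RLE factors, library sizes alone, other filters, DESeq2 1.42.0, voom in limma 3.58.1, fewer groups, a replicate block, removal of a length trend and leaving out libraries. On simulated data with 200 changed genes, the fit found 36% of 2-fold and 73% of 4-fold changes in surgery against control (16941 genes). In the averaged pMT comparison it found 70% and 90% (16924 genes). Unchanged genes called by mistake numbered 2 in the first and 17 in the second. The simulated counts varied independently between libraries around a common mean per gene. They lacked the deviations that these libraries share over many genes, so the figures do not measure errors in these data. Total counts were 52342134 to 73557878. Gene names and promoter sequences came from RefSeq tables of assembly GRCr8, and no coordinates of rn6 were used.

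The 42 genes, the pathway and marker lists and the tests were chosen with earlier results of these data known. Named genes were members called in the 5-group test or any contrast, at most the 16 with the smallest p in the 5-group test, and the 2 with the highest mean TPM in each family. Other members are given by counts or in short. From each pathway list, at most 3 genes called in surgery against control or in the averaged pMT comparison were named, by size of change.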

Additional observations from a re-analysis of the deposited data

Results flagged for a closer look

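In 4 of 42 sets of 4 libraries, 1 library stood far from the other 3 of its group. A set was 1 named gene in the pMT or the pMT/VitD group, so the 42 sets are not the 42 genes. Chance alone would place about 2.1 sets (1 in 20) beyond the limit used. That figure treats the sets as independent, although genes of the same library can shift together. Adamts8 was at 11.2 CPM in pMT replicate 4 and at 15.4 to 16.4 in the other pMT libraries. Mmp2 was at 87.0 CPM in the same library and at 119 to 125 in the others of its group. Mmp23 was at 4.98 CPM in pMT/VitD replicate 4 and at 3.33 to 3.39 in the others. Adamts1 was at 26.8 CPM in pMT/VitD replicate 4 and at 16.7 to 16.9 in the others. All 4 were replicate 4 of a group with pMT. Without both of these libraries Adamts1 was called in the averaged pMT comparison (higher with pMT), which it was not with them.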

How the results depend on the processing

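The labels' replicate numbers gave no sign of pairing. Of same-numbered pairs from different groups, 2 of 24 deviated together (r above 0.1), against 8 of 64 different-numbered pairs. In groups of 2 libraries the deviations mirror each other, so this check cannot exclude pairing. With the numbers as a replicate block, 9 of the 42 genes were called among the 5 groups (15 without it), 1 in surgery against control (3), 1 in pMT against surgery (6), 19 in pMT/VitD against VitD (20) and 19 in the averaged pMT comparison (23). The block called 6.28%, 0.616% and 0.453% of all genes in the first 3 of these.

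Counts of calls changed as follows, with the share of all genes called in parentheses where it is given. Ranges with 1 library left out have no share beside them, so they do not tell the 42 from genes in general. Among the 5 groups there were 24 with library sizes alone (20.8%), 38 with voom (66.6%) and 27 without both replicates 4 (29.8%), and 10 to 19 with 1 library left out. For surgery against control there were 8 with library sizes alone (5.8%), all higher, 5 with a minimum of 10 counts in every library (2.24%), 10 with DESeq2 (5.82%), 22 with voom (28.5%), 26 with only those groups (32.4%), 5 with the length trend removed (3.15%) and 9 without both replicates 4 (4.17%), and 0 to 8 with 1 library left out. For VitD against control there were 17 with library sizes alone (16.2%), all higher, 16 with DESeq2 (14.4%), 27 with voom (37.4%) and 0 with only those groups (0.579%), and 0 to 15 with 1 library left out. For pMT against surgery there were 30 with voom (37.5%) and 11 with the exact test (7.1%), and 1 to 8 with 1 library left out, while library sizes alone gave 4, all lower. For pMT/VitD against VitD there were 11 to 25 with 1 library left out, and for the averaged pMT comparison 15 to 28, and 35 with voom (51.2%). For pMT/VitD against pMT there were 22 with voom (38.3%) and 13 without both replicates 4 (18.3%), and for the interaction 16 (31.4%) and 2 (1.89%), while leaving out 1 library gave 0 to 0 in both. VitD against surgery and operated rats with pMT against control had 0 calls among the 42 in every alternative run. In VitD against surgery, voom called 2.44% of all genes.

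Leaving out pMT replicate 4, pMT/VitD replicate 4 and VitD replicate 1 together, an alternative chosen after seeing the data, gave 26 calls among the 5 groups (34.5%), 17 in surgery against control (14.2%), 15 in pMT against surgery (11%), 29 in the averaged pMT comparison, 15 in pMT/VitD against pMT (26.8%) and 3 in the interaction (7.61%). The causes of these changes were not tested, and no share of all genes is given for the 29. Over 1616 refits of single calls, 1367 kept the call, 249 lost it and 0 reversed. In the averaged pMT comparison 15 of the 23 calls (Adamts15, Adamts17, Adamts7, Adamts8, Adamtsl2, Lox, Loxl1, Loxl4, Mmp11, Mmp14, Mmp19, Mmp2, Mmp23, Timp1 and Timp2) held in all 26 alternatives. So did 9 of 20 in pMT/VitD against VitD (Adamts17, Adamts7, Adamtsl2, Lox, Loxl1, Mmp11, Mmp14, Mmp23 and Timp2), 0 of 3 in surgery against control and 0 of 10 in VitD against control. The other 8 averaged calls held in 24 of 26 alternatives for Adamts16 and Adamts2, 23 for Mmp17, 14 for Adamts6, 13 for Adamts12 and Adamts14, 8 for Adamtsl5, and 17 of 25 for Mmp27. In pMT against surgery, Adamts17 held in 27 of 27, Loxl1 in 17, Adamts8 and Timp2 in 16, Adamts7 in 14 and Lox in 13.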
